A study of Mus musculus with 25 samples.

Results

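Primary spermatocytes were sorted by FACS from a suspension of a single adult mouse testis as cells with the DNA content of the 4C peak after Hoechst staining, with propidium iodide used to leave out dead cells, and were profiled by Drop-seq. Drop-seq joins a cell with a barcoded bead in a droplet and counts each captured transcript once, near its 3′ end, by a unique molecular identifier (UMI). The cells described here are all barcodes of that library with at least 200 UMIs, 198 of the 199 deposited, out of 44404 such barcodes in the 25 libraries of the series. They are set against the secondary spermatocytes (154 of 398 barcodes) and the spermatids (291 of 299 barcodes) sorted in the same way and, like them, sequenced on a MiSeq. All 3 populations came from wild-type C57BL/6 mice aged 2 months and 21 days and were dissociated mechanically. The references are 11 libraries of wild-type C57BL/6 whole testis (3 to 9 months, 2 of them dissociated enzymatically) and 6 libraries of whole testis from Mlh3-/- mice (2 to 8 months, strain B6;129 in the labels and B6.129 in the study's methods), which lack a protein needed for crossovers and whose germ cells stop in meiosis. The study sequenced libraries on a HiSeq or a MiSeq and proposed a batch effect of the sequencer. Its part in differences from the whole-testis libraries was not tested. Sorted spermatogonia, the GFP+ cells of pooled litter mates aged 7 days, labelled Pouf51-EGFP and C57BL/6 and given in the methods as a Pou5f1-EGFP line of B6;CBA background, were dissociated enzymatically and sequenced on a HiSeq, and are quoted as a reference level only. Each sorted population is 1 library, so no difference between them could be tested against the spread between samples. Every interval given is a 95% interval that covers counting error only.

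Primary spermatocytes are the germ cells of the first meiotic prophase. They replicate their DNA, break and repair it along paired homologues held by the synaptonemal complex, and spend most of prophase in pachytene, when autosomal genes for meiosis and for later sperm are transcribed and the X and Y chromosomes are silenced in the sex body. The first division then gives secondary spermatocytes, and the second gives round spermatids, which build an acrosome and finally replace their histones with transition proteins and protamines.

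The 198 primary spermatocyte barcodes held 106941 UMIs, with a median of 308.0 UMIs and 262.5 genes and a range of 220 to 12582 UMIs. The secondary spermatocytes held 223002 UMIs (median 353.5) and the spermatids 235699 (median 352.0). Depth was uneven. Only 34 primary spermatocyte barcodes reached 500 UMIs, and these held 52.8% of the UMIs. The deepest barcode alone held 11.8%, against 8.73% in the secondary spermatocytes and 3.51% in the spermatids. The primary spermatocytes shared no barcode with the other 3 sorted libraries and between 0 and 2 with each of the 24 other libraries. Levels are UMIs summed over the barcodes and given as counts per 1e6 UMIs (CPM), so a cell counts by its depth, and fewer cells of a type cannot be told apart from less RNA per cell.

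The label was checked against 3 markers of primary spermatocytes. Piwil1 encodes a PIWI protein that binds pachytene piRNAs, Psma8 a testis form of a proteasome subunit and Tex101 a surface protein of germ cells. Together they took 142 UMIs or 1328 CPM in the primary spermatocytes (interval 1118 to 1565), 26 UMIs or 116.6 CPM in the secondary spermatocytes and 33 UMIs or 140.0 CPM in the spermatids. The primary spermatocyte level was 11.4 times that of the secondary spermatocytes (7.46 to 18) and 9.48 times that of the spermatids (6.46 to 14.3). It lay above the level of every wild-type testis library (134.1 to 496.8 CPM) and within the range of the Mlh3-/- libraries (1040 to 2014 CPM). The markers were in the library named after them, as labelled.

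Each marker showed this order. Piwil1 (chr5:128702524-128755474, plus strand, GRCm38) had 53, 8 and 8 UMIs in primary spermatocytes, secondary spermatocytes and spermatids, or 495.6, 35.9 and 33.9 CPM. Psma8 had 48, 9 and 16 UMIs (448.8, 40.4 and 67.9 CPM), and Tex101 (chr7:24668007-24676675, minus strand) had 41, 9 and 9 (383.4, 40.4 and 38.2 CPM). For none of the markers did the primary spermatocyte interval overlap that of either other population. A UMI of any of the 3 was found in 39.4% of primary spermatocyte barcodes (exact binomial interval 32.5 to 46.6), 7.79% of secondary spermatocytes and 6.87% of spermatids. With every barcode thinned to 200 UMIs, so that depth was equal, the shares were 22.7% (17.1 to 29.2), 3.25% (1.06 to 7.41) and 4.12% (2.15 to 7.09). Spermatids are past the stage these genes mark, but 14 of the 100 spermatid barcodes with at least 500 UMIs had more UMIs of pachytene than of spermatid lists, so that share is not a level measured without the cell type.

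The promoters of Piwil1 and Tex101 are shown because Piwil1 is a textbook target of MYBL1 (A-MYB), the transcription factor of the pachytene program, whose sites hold the letters CAACTG. The windows run from 250 bases before to 50 after the RefSeq start of a transcript (GRCm38.p6), which for both markers lies inside the gene span given above and not at its outer end, 5′ to 3′ on the strand of the gene, with CAACTG or its reverse complement in capitals. Piwil1 lies at chr5:128735996-128736295, plus strand, and Tex101 at chr7:24672001-24672300, minus strand. Ccp110, a centriole protein gene at chr7:118712293-118712592, plus strand, is added because its window holds the pattern. It was also among the genes most above the secondary spermatocytes, of which others with a window, such as Hmgb2 and Cks2, lacked the pattern.
Piwil1: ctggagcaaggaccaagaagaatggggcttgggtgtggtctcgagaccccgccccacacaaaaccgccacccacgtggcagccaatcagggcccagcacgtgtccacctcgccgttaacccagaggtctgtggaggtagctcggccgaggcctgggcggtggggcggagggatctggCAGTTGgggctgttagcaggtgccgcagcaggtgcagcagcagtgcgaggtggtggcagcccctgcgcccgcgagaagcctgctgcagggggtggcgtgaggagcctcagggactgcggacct
Ccp110: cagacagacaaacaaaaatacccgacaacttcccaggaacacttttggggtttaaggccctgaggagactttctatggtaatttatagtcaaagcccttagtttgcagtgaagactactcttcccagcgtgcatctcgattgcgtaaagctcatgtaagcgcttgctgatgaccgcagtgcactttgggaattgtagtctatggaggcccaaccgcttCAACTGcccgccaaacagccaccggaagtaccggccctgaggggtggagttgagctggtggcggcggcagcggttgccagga
Tex101: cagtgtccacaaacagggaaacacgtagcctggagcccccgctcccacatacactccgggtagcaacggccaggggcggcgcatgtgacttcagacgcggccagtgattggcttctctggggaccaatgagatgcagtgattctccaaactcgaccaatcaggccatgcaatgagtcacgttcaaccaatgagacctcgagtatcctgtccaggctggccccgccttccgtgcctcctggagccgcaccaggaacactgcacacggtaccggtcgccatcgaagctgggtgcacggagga

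The pattern began 73 bases before the start of Piwil1, on the opposite strand, and 32 bases before that of Ccp110, and it was not in the window of Tex101. It was in 13.7% of all 32851 promoter windows. Of the 21 genes named below as higher in primary spermatocytes, 15 had a window and 3 of these held the pattern (Ccp110, Piwil1 and Rsrp1). Of the 15 genes named as lower, 11 had a window and 3 held it, so the pattern did not set the higher genes apart. The other patterns were also searched on both strands. The longer CCAACTG and CAACTGCC, which contain the hexamer, were in 1 and 2 of the 15 windows (4.07% and 1.24% of all windows), and AACNGTT in 2 (4.45%). Of the 11 windows of lower genes, CCAACTG and CAACTGCC were each in 0 and AACNGTT in 1. The cyclic AMP response element TGACGTCA was in 0 of the 15 (1.79%) and its part TGACGT in 1 (7.51%), and GTTGCCA, part of an RFX site, was in 1 (4.38%). Each of these was in 0 of the 11 windows of lower genes. Mybl1 itself had 17, 9 and 2 UMIs in primary spermatocytes, secondary spermatocytes and spermatids.

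Genes were compared by the ratio of their CPM where they had at least 20 UMIs over the 3 sorted libraries, with a count of 0 set to 3. Of 4427 such genes, 1021 (23.1%) were at least 2-fold higher and 1224 (27.6%) at least 2-fold lower in primary than in secondary spermatocytes. Against spermatids, 1355 (30.6%) were higher and 1126 (25.4%) lower, and 890 (20.1%) were higher and 1004 (22.7%) lower than in both. The numbers of higher and lower genes depend on the scaling. The median log2 ratio over all genes was 0.06 against secondary spermatocytes and 0.27 against spermatids by CPM. Scaling by TMM, which trims extreme genes, moved every ratio by -0.44 and -0.65, to medians of -0.38 and -0.39. The split became 634 higher and 1581 lower against secondary spermatocytes and 699 higher and 1624 lower against spermatids, and 457 higher and 1409 lower than both. Medians of gene lists are therefore read against the median of all genes, a difference that scaling does not change. Ratios of single genes and of list sums below are by CPM. They take the same shift under TMM, so a small rise, such as that of Ldhc or of the testis isoforms, depends on the scaling.

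**Figure D1:**
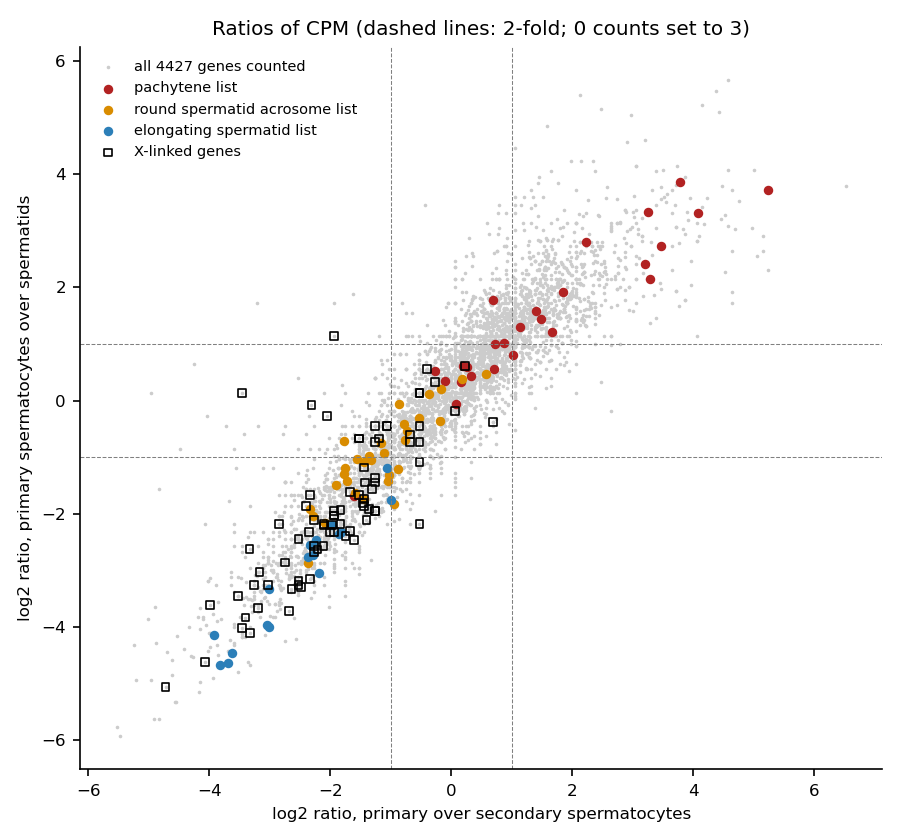
Log2 ratio of CPM in primary over secondary spermatocytes (x axis) and over spermatids (y axis) for the 4427 genes with at least 20 UMIs, with a count of 0 set to 3 and dashed lines at 2-fold. Pachytene genes (red) reach the upper right, while elongating spermatid genes (blue), many round spermatid acrosome genes (orange) and most X-linked genes (open squares) lie at the lower left.

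The genes furthest above the secondary spermatocytes were chosen by the lower bound of the ratio, and mitochondrially encoded genes were set aside. Hmgb2, a chromatin protein of dividing and meiotic cells, had 44 UMIs in primary spermatocytes (411.4 CPM), 1 in secondary spermatocytes and 7 in spermatids. Its ratio to the secondary spermatocytes was 91.8, with a wide interval of 15.6 to 3705. Calm2, a calmodulin gene and the most abundant of these genes, had 235, 29 and 52 UMIs (2197, 130.0 and 220.6 CPM), a ratio of 16.9 (11.5 to 25.8) to secondary spermatocytes and 9.96 (7.35 to 13.7) to spermatids. The counts of Calm2 are uncertain where near-identical sequence could split its reads. Cks2, the kinase subunit needed to leave the first meiotic metaphase, had 46, 3 and 6 UMIs and ratios of 32 (10.3 to 160.7) and 16.9 (7.2 to 48.4). The primary spermatocyte intervals of these genes lay above those of both other libraries.

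The chromatin reader gene Mphosph8 had 75, 7 and 12 UMIs, and Psip1, which encodes a chromatin-bound coactivator, had 100, 14 and 22. The glucose transporter gene Slc2a3 stood at 897.7 CPM against 67.3 in secondary spermatocytes and 50.9 in spermatids, a ratio of 13.3 (7.7 to 24.8) to the former. Ccp110 had 48, 4 and 17 UMIs, and Arl6ip1, an endoplasmic reticulum shaping gene, 124, 22 and 24. Cdc42ep3, Gmcl1 and Tmem30c were also in the set, with ratios to secondary spermatocytes of 15.4, 25.7 and 25. The long non-coding Gm14244 had 21, 0 and 3 UMIs, at least 14.6-fold higher than in the secondary spermatocytes.
Glipr1l2 (40, 4 and 2 UMIs) was in the set against both populations. Against spermatids alone, the rule added Stk31 (23, 2 and 1), Unc50 (31, 3 and 2), Rsrp1 (43, 12 and 4), Psma2 (19, 9 and 1), PISD (38, 7 and 5) and Piwil1. Stk31 encodes a Tudor-domain kinase of germ cells, and its ratio of 50.7 to the spermatids had the interval 8.23 to 2088. Of the 21 genes named in either comparison, each was above its level in all 11 wild-type testis libraries. The choice used the same primary spermatocyte counts, so this is not separate support.

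**Figure D2:**
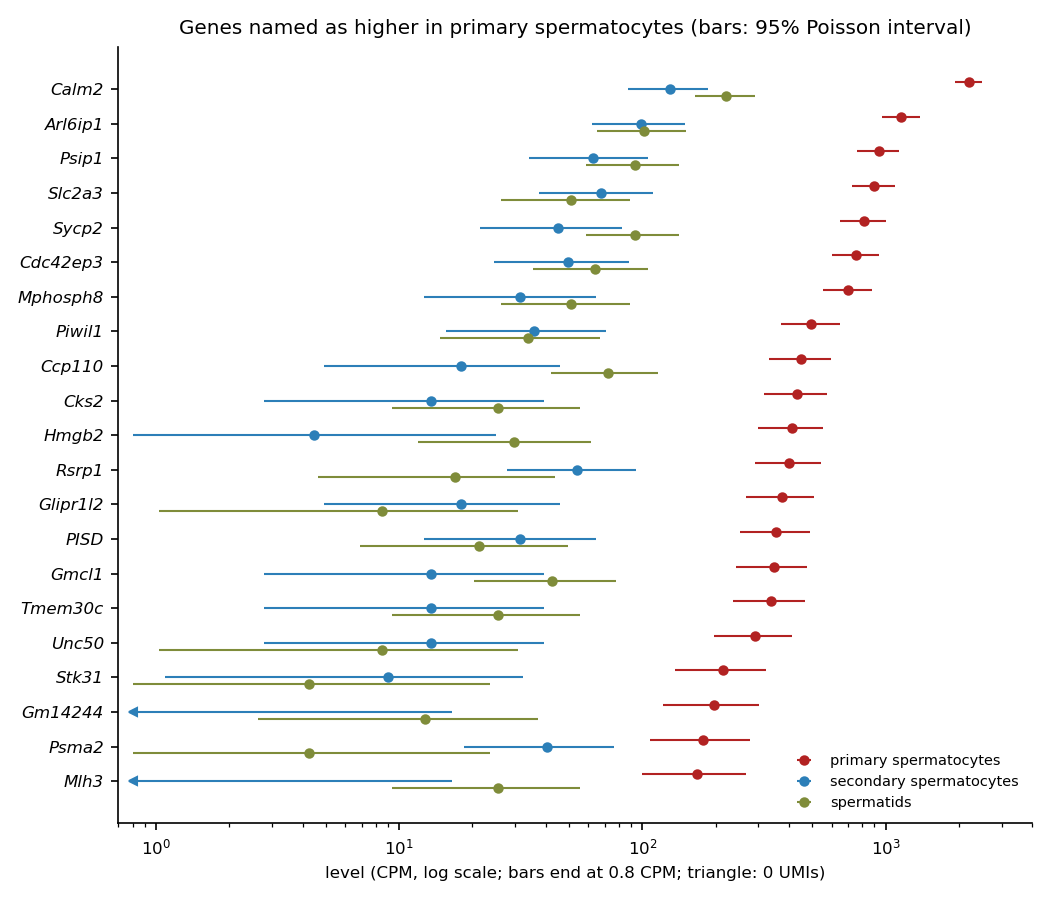
Level in CPM on a log axis of the 21 genes named as higher in primary spermatocytes, with points for the 3 sorted libraries and bars for the 95% Poisson interval. No primary spermatocyte interval overlaps that of another library, and Calm2 is highest at 2197 CPM. The rule chose genes by the bound of the ratio to secondary spermatocytes, to spermatids or to each. Separation from the population used for the choice therefore follows from the rule.

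Genes of recombination were measured at low counts but with large ratios. Mlh3, the crossover endonuclease gene, had 18 UMIs in primary spermatocytes (168.3 CPM, 99.8 to 266.0), 0 in secondary spermatocytes and 6 in spermatids, which is at least 12.5-fold higher than the secondary spermatocytes. Cntd1, a cyclin-like crossover factor, had 29, 4 and 7 UMIs, a ratio of 15.1 (5.31 to 59.2) to secondary spermatocytes. Msh4, the partner of crossover intermediates, was instead at 2, 11 and 9 UMIs. Over the 11 genes of crossover and mismatch repair the level was 654.6 CPM against 107.6 and 131.5, a ratio of 6.08 (3.78 to 10.1) to secondary spermatocytes. Mlh3 and Cntd1 carried most of the sum, and of only 3 genes with enough UMIs 2 were at least 2-fold higher and 1 lower than both other populations (20.1% and 22.7% of all genes).

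Spo11, which makes the meiotic breaks, had 15, 2 and 6 UMIs (140.3, 8.97 and 25.5 CPM). Brca2, which loads the strand exchange proteins, had 16, 5 and 4, and Psmc3ip, their accessory factor, 49, 45 and 64. The 19 genes of breaks and strand exchange summed to 1057 CPM (870.8 to 1270) against 322.9 and 458.2, and to 1941 CPM in sorted spermatogonia. Of the 5 genes with enough UMIs, 4 were at least 2-fold higher than in secondary spermatocytes (23.1% of all genes) and 3 than in spermatids (30.6%). The 19 genes of leptotene and zygotene, the stages before pachytene, had 54 UMIs or 505.0 CPM (379.3 to 658.9) against 125.6 and 152.7 CPM. The ratios were 4.02 (2.5 to 6.59) and 3.31 (2.13 to 5.19). The level was above the highest wild-type testis library (392.0 CPM), which lay inside the interval. Sorted spermatogonia stood higher, at 1011 CPM, and the Mlh3-/- libraries at 495.1 to 894.3 CPM. The largest member of the list was Terb1, which ties telomeres to the nuclear envelope (listed as Ccdc79), with 15, 3 and 2 UMIs. Genes of spermatogonia were at 6 UMIs (56.1 CPM), against 4377 CPM in sorted spermatogonia.

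The synaptonemal complex list was split by role. Sycp2 and Sycp3, the axial elements that form first, had 87, 10 and 22 and 50, 13 and 11 UMIs. Sycp1, the transverse filament that joins the axes, had 51, 12 and 16. Their ratios to secondary spermatocytes were 18.1 (9.41 to 39.2), 8.02 (4.29 to 16.1) and 8.86 (4.66 to 18.3). The genes of the central element differed among themselves. Syce1 had 64, 82 and 72 UMIs (598.5, 367.7 and 305.5 CPM), whereas Syce2 was lower in primary spermatocytes, at 13, 55 and 75 UMIs (121.6, 246.6 and 318.2 CPM), a ratio of 0.493 (0.247 to 0.914) to secondary spermatocytes. Syce3 was at 149.6, 273.5 and 258.8 CPM. Of the 7 genes with enough UMIs, 4 were higher and 1 lower than in both other populations, against 20.1% and 22.7% of all genes. Meiotic cohesin genes summed to 523.7 CPM against 443.9 and 415.8, a ratio of 1.18 (0.834 to 1.65), of which Smc1b gave most, with 40, 43 and 46 UMIs. The sum was below all 11 wild-type libraries (623.0 to 1532 CPM) and the Mlh3-/- libraries (533.5 to 1209 CPM). Its interval, 395.6 to 680.0, reached both ranges. Of the 4 cohesin genes with enough UMIs, 2 were at least 2-fold lower than in secondary spermatocytes (27.6% of all genes) and 0 higher, with a median log2 ratio of -0.53 against 0.06 for all genes. Against spermatids 1 was higher and 1 lower (30.6% and 25.4% of all genes), with a median of 0.04 against 0.27. Rec8, the kleisin that holds sister chromatids, had 2, 16 and 8 UMIs, and Smc3 4, 26 and 36.

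The pachytene list held both the genes that set primary spermatocytes apart and genes that were as high afterwards. Its 28 members took 42874 CPM (41642 to 44133), 1.56 times the level of the secondary spermatocytes (1.5 to 1.62) and above all 11 wild-type libraries (25972 to 35338). Of 26 genes with enough UMIs, 14 were at least 2-fold higher than in secondary spermatocytes (23.1% of all genes) and 16 than in spermatids (30.6%), with 1 lower in each. The 3 markers used to check the label are in this list and among its higher genes. Several of the lists share members, so their counts are not independent. The median log2 ratios were 1.08 and 1.26, against 0.06 and 0.27 for all genes. Ldhc, the testis lactate dehydrogenase, was the most abundant nuclear gene, with 1099 UMIs in primary spermatocytes (10277 CPM) and 8179 and 7577 CPM in the others, a ratio of only 1.26 (1.16 to 1.35). Meig1, needed for the manchette of spermatids, and Ropn1l, a sperm tail protein gene, were at 4713, 4439 and 4896 CPM and 3497, 3731 and 2741 CPM.
These abundant genes differed little among the populations, whereas Pld6, the mitochondrial nuclease of piRNA processing, had 18, 1 and 3 UMIs, and Nol8 75, 17 and 31. Clgn, the calmegin chaperone of sperm surface proteins, stood at 2244 CPM against 802.7 and 823.1, and Ly6k, a partner of Tex101, at 505.0 against 107.6 and 72.1. Pgk2, the autosomal phosphoglycerate kinase, was the lower member, at 299.2 CPM (204.7 to 422.4) against 905.8 and 963.1.

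**Figure D3:**
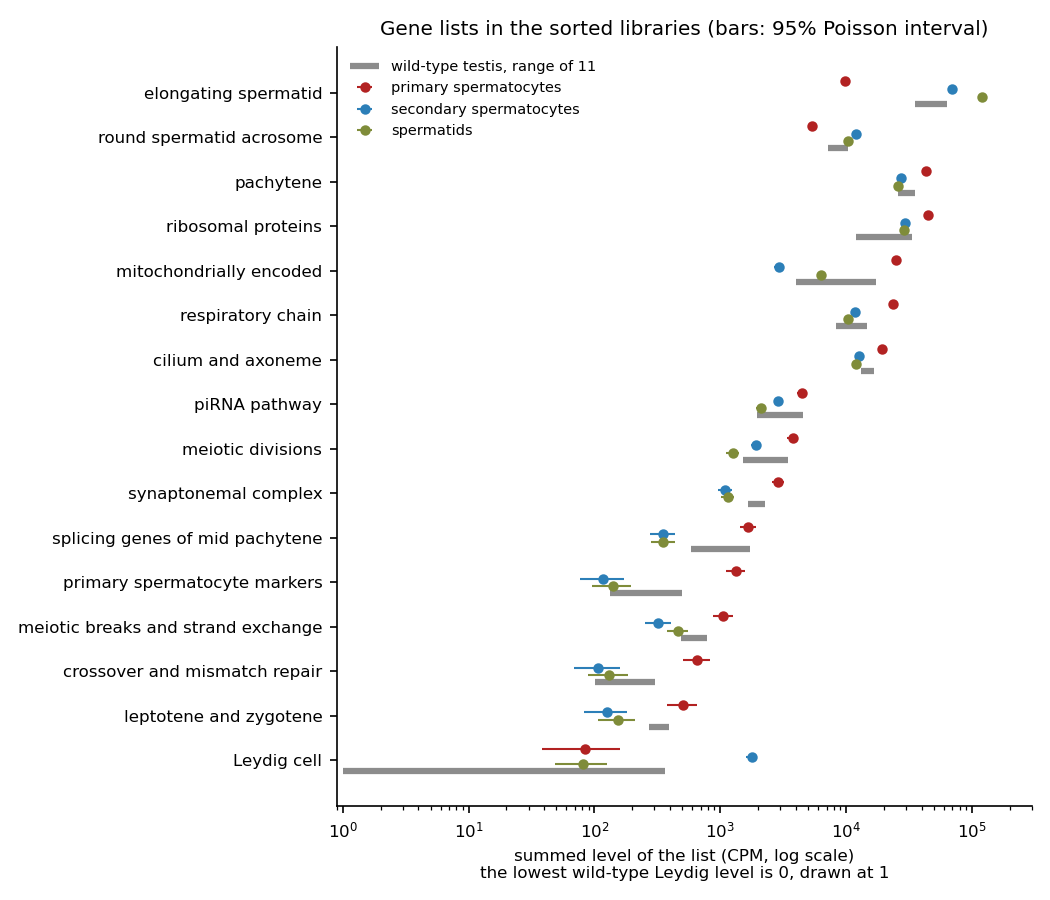
Summed level of gene lists in CPM on a log axis in primary spermatocytes (red), secondary spermatocytes (blue) and spermatids (olive), with the 95% Poisson interval and, in grey, the range of the 11 wild-type testis libraries. Primary spermatocytes are the highest of the 3 for every list shown except the elongating spermatid (9865 CPM), round spermatid acrosome (5395 CPM) and Leydig cell lists.

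The piRNA pathway guards the germline against transposons and, in pachytene, processes long intergenic precursors. Its list summed to 4451 CPM against 2888 and 2092, a ratio of 1.54 (1.37 to 1.74) to secondary spermatocytes, with the highest wild-type testis at 4508 CPM. Of 11 genes with enough UMIs, 8 were at least 2-fold higher than in secondary spermatocytes (23.1% of all genes), 8 than in spermatids (30.6%) and 0 at least 2-fold lower than either. Mov10l1, the helicase that starts piRNA processing, had 17, 3 and 3 UMIs, Piwil2 had 12, 2 and 3, and the scaffold gene Tdrd1 14, 3 and 7. Ddx4, the Vasa helicase, stood at 448.8, 183.9 and 161.2 CPM. Mael and Gtsf1 did not follow, at 935.1, 1130 and 653.4 CPM and at 533.0, 887.9 and 615.2 CPM.

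Cell cycle genes of the meiotic divisions were already present. The list summed to 3778 CPM (3418 to 4165), against 1924 in the secondary spermatocytes and 1256 in the spermatids, and lay above all 11 wild-type libraries (1518 to 3470). Cdk1, the kinase of M phase, had 16, 4 and 2 UMIs, Pttg1, the separase inhibitor, 40, 21 and 19, and Cdc20, the activator of anaphase, 28, 17 and 14. Ccna1, the meiotic cyclin A, had 28, 36 and 18 UMIs (261.8, 161.4 and 76.4 CPM), and Ccnb2 24, 59 and 38. Cdc25a was the member on the other side, with 1, 16 and 5 UMIs. Of 16 genes with enough UMIs, 7 were at least 2-fold higher than in secondary spermatocytes (23.1% of all genes) and 12 than in spermatids (30.6%), while 1 was lower than both. The DUF622 and SSX gene families, which are switched on around the divisions, were at 364.7 CPM (259.3 to 498.5), against 493.3 and 547.3, and below all 11 wild-type libraries. In the Mlh3-/- libraries these families were at 2.3 to 13.3 CPM.

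Of the 5 splicing genes of mid pachytene, the 4 with enough UMIs were at least 2-fold higher than in both populations (20.1% of all genes). Srrm2, a scaffold of nuclear speckles, had 73, 22 and 18 UMIs (682.6, 98.7 and 76.4 CPM), and Rbm5, a splicing factor needed for male fertility, 41, 6 and 11. The list stood at 1664 CPM, a ratio of 4.76 (3.63 to 6.29) to secondary spermatocytes and 4.73 (3.62 to 6.21) to spermatids. Sorted spermatogonia were higher, at 3253 CPM. Srrm2 was found in 30 of the 198 barcodes and Rbm5 in 26.

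Of 10 transcription factors of germ cells, 3 were at least 2-fold higher and 2 lower than in both other populations, against 20.1% and 22.7% of all genes. Mybl1 was at 159.0, 40.4 and 8.49 CPM. Kctd19 and Hsf5, which are needed to finish meiosis, were at 346.0, 152.5 and 114.6 CPM and 149.6, 35.9 and 33.9 CPM. Crem and Rfx2, which drive spermatid genes, had 41, 78 and 95 and 9, 10 and 13 UMIs, without a 2-fold difference. Spz1 and Sox30 were lower in primary spermatocytes, at 336.6, 1435 and 1740 CPM and 65.5, 255.6 and 178.2 CPM.

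Genes of chaperones and protein folding included members on either side. Hsp90b1, the lumenal HSP90, stood at 1982, 529.1 and 530.3 CPM, Hspa5, the lumenal HSP70, at 1188, 426.0 and 288.5, and Canx, calnexin, at 355.3, 71.7 and 114.6. Hspa2, the meiotic HSP70 needed to disassemble the synaptonemal complex, was at 1131, 511.2 and 458.2 CPM. Calr3 and Pdilt, chaperones of sperm proteins, were at 56.1, 390.1 and 330.9 CPM and at 102.9, 287.0 and 288.5. Over 23 genes with enough UMIs, 11 were higher and 2 lower than in secondary spermatocytes (23.1% and 27.6% of all genes), and 15 higher and 3 lower than in spermatids (30.6% and 25.4%). The proteasome list held 10 higher and 2 lower of 26 against secondary spermatocytes (23.1% and 27.6% of all genes), with a median log2 ratio of 0.81 against 0.06 for all genes.

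Of the pairs of testis and somatic isoforms, the testis forms summed to 21657 CPM in primary spermatocytes against 15695 and 15112, ratios of 1.38 (1.31 to 1.45) and 1.43 (1.36 to 1.51). These ratios, of log2 0.46 and 0.52, are near or below the TMM shifts in size, so a rise depends on the scaling. The somatic forms summed to 2656 CPM against 1646 and 1392, with ratios of 1.61 (1.38 to 1.89) and 1.91 (1.62 to 2.24), and 3 of 7 with enough UMIs were higher than in both (20.1% of all genes). Among the testis forms, Cox8c was at 2459, 802.7 and 831.6 CPM, Cox7b2 at 1197, 291.5 and 330.9, and the testis cytochrome c gene Cyct at 467.5, 107.6 and 106.1. The testis forms of glycolytic enzymes Gapdhs and Aldoart1 were lower, at 383.4, 1928 and 2257 CPM and at 28.1, 107.6 and 140.0, unlike Ldhc. Of 17 testis forms with enough UMIs, 7 were higher and 4 lower than in secondary spermatocytes, against 23.1% and 27.6% of all genes. Nuclear genes of the respiratory chain summed to 23387 CPM against 11771 and 10318. Of 52 with enough UMIs, 24 were higher than in secondary spermatocytes (23.1% of all genes), 36 than in spermatids (30.6%) and 0 lower than either.

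Mitochondrially encoded transcripts were 8.5 times as high as in secondary spermatocytes (7.8 to 9.28) and 3.93 times as high as in spermatids (3.69 to 4.19), at 24705 CPM. These ratios of sums depend on depth. In barcodes of 200 to 299 UMIs the levels were 30374 CPM against 8657 and 18601. In barcodes with 2000 or more UMIs they were 10298 against 714.8 and 1744. All 8 genes with enough UMIs were at least 2-fold higher than in both (20.1% of all genes), led by the ribosomal RNA mt-Rnr2 with 2042, 419 and 1239 UMIs. Among barcodes with at least 500 UMIs their share ran from 0.0675% to 14% of UMIs, with a median of 1.07% in primary spermatocytes, 0.151% in secondary spermatocytes and 0.157% in spermatids. The study removed cells with a high level of mt-Rnr2, and such barcodes are kept here. The Mlh3-/- libraries stood at 45518 to 134469 CPM. Whether RNA quality or the content of mitochondria set these levels was not tested. Ribosomal protein genes were at 45006 CPM against 29650 and 28719, with 20 of 75 higher than in secondary spermatocytes, near the 23.1% of all genes, and a median log2 ratio of 0.61 against 0.06.

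The cilium and axoneme list was at 19151 CPM (18330 to 19999), above all 11 wild-type libraries (13034 to 16665), and 10 of 15 genes were at least 2-fold higher than in secondary spermatocytes (23.1% of all genes) with 0 lower. The heavy chain gene Dnah8 stood at 907.0, 152.5 and 203.6 CPM, Ccdc39, a ruler of axonemal spacing, at 1160, 228.7 and 280.0, and the radial spoke gene Rsph1 at 2833, 784.7 and 746.7. Sperm surface genes were at 15214 CPM against 11300 and 9864. Spink2, an acrosomal protease inhibitor, was at 2712, 1543 and 1307 CPM, and Crisp2 at 2132, 2673 and 2626. Of 15 such genes, 3 were higher than in secondary spermatocytes and 0 lower, against 23.1% and 27.6% of all genes. The tubulin genes Tuba3a and Tuba3b, at 2628 and 3189 CPM, are near-identical and their counts may be split between them.

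Histone genes differed by type. The variant histone gene H2afz was at 317.9, 58.3 and 72.1 CPM, H2afy, macroH2A, at 177.7, 13.5 and 46.7, and H2afx, whose phosphorylated form marks breaks and the sex body, at 93.5, 13.5 and 17. The spermatid linker histones H1fnt and Hils1 were lower, at 149.6, 1211 and 1493 CPM and at 448.8, 2117 and 2465. Of 7 histone genes with enough UMIs, 3 were higher and 2 lower than in both other populations, against 20.1% and 22.7% of all genes.

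Genes of elongating spermatids were 0.141 times the level of secondary spermatocytes (0.132 to 0.15) and 0.0827 times that of spermatids (0.0777 to 0.088), at 9865, 70013 and 119267 CPM. These ratios also depend on depth. The levels were 10985, 38987 and 84412 CPM in barcodes of 200 to 299 UMIs. In barcodes of 1000 to 1999 UMIs they were 5208, 105718 and 148862 CPM. Of 17 genes, 16 were at least 2-fold lower than in secondary spermatocytes (27.6% of all genes) and 17 than in spermatids (25.4%). Prm1, a protamine gene, had 164, 4212 and 7920 UMIs (1534, 18888 and 33602 CPM), and Tnp1, the transition protein that precedes protamines, 79, 2318 and 4451. Prm1 in primary spermatocytes was also below every wild-type testis (3553 to 12588 CPM), while the Mlh3-/- libraries held 0 to 0.921 CPM. Other genes named as lower included 1700042G07Rik (3, 148 and 263 UMIs), Cdrt4 (2, 118 and 216), Tuba8 (2, 122 and 86), and Lrrc57 and Prss55, each with 0 UMIs in primary spermatocytes. Lrrc57, with 57 and 88 UMIs in the others, allowed at most 0.0751 times the spermatid level.
A UMI of Prm1 was found in 42.9% of primary spermatocyte barcodes, or 27.3% (21.2 to 34) after thinning, against 60.4% of thinned secondary spermatocytes and 89.3% of thinned spermatids. A UMI from free RNA of the suspension cannot be told apart here from one made in the cell.

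Round spermatid acrosome genes were lower by less in the sums, at 5395, 11960 and 10403 CPM. In barcodes of 200 to 299 UMIs they were at 2459, 10516 and 12642 CPM. Against secondary spermatocytes they were not lower by less at that depth. Of 31 genes, 19 were at least 2-fold lower than in secondary spermatocytes (27.6% of all genes), 17 than in spermatids (25.4%) and 0 higher than either. Acrv1, an acrosomal matrix gene, had 41, 220 and 177 UMIs, and Tssk2, a kinase of spermatids, 24, 213 and 237. In both genes the deepest primary spermatocyte barcode gave the larger part, 21 of 41 and 14 of 24 UMIs. Without this barcode the acrosome list stood at 3264 CPM and the elongating list at 8892 CPM. That barcode held 12582 UMIs, with 21380 CPM of acrosome genes, 17167 CPM of elongating spermatid genes and 79.5 CPM of the 3 markers, and was led by Ldhc, Smcp and Fabp9. It held 1 UMI each of Prm1 and Prm2. Protamine and transition protein genes together had 484 UMIs in the primary spermatocytes and 465 without this barcode, so it also held UMIs of other such genes.

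Of the 34 primary spermatocyte barcodes with at least 500 UMIs, 32 had more UMIs of the pachytene list than of the acrosome and elongating lists together, against 15 of 65 secondary spermatocytes and 14 of 100 spermatids. The spermatid lists took a median of 0.977% of their UMIs (0.244% to 3.96%), against 4.33% and 17.6%. In secondary spermatocytes it ran from 0.159% to 30.4%. Protamine and transition protein genes together stood at 4526 CPM in primary spermatocytes and 50031 CPM in the library labelled secondary spermatocytes, and their part in the ratios to that library was not tested beyond the TMM scaling.

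**Figure D4:**
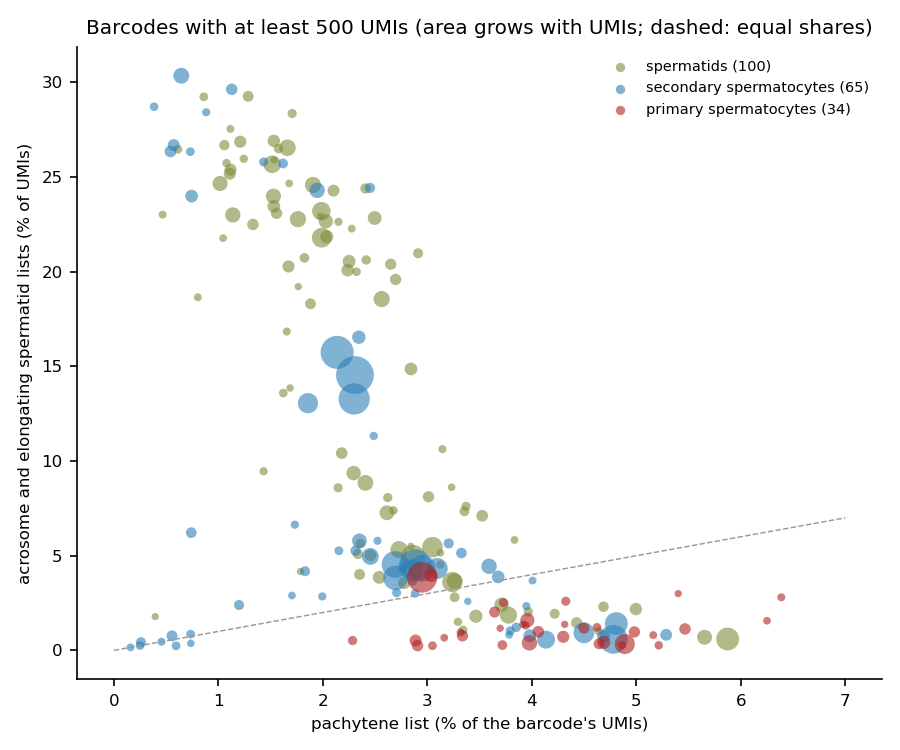
Share of each barcode's UMIs taken by the pachytene list (x axis, percent) and by the acrosome and elongating spermatid lists together (y axis, percent), for barcodes with at least 500 UMIs, with point area growing with UMIs and the dashed line at equal shares. Primary spermatocytes (34, red) have spermatid shares of 0.244% to 3.96%, and 32 of them lie below the line, as do 15 of 65 secondary spermatocytes and 14 of 100 spermatids.

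X-linked genes were low, the pattern for which the sex body of pachytene is known. Of autosomal and X-linked UMIs together, 445 of 103018 or 0.432% (0.393 to 0.474) were X-linked in primary spermatocytes. The share was 1.59% in secondary spermatocytes, 1.7% in spermatids, 2.74% in sorted spermatogonia and 1.1% to 1.66% in the wild-type testes. The Mlh3-/- libraries ran from 0.45% to 1.88%, and the lowest of them lay inside the interval of the primary spermatocytes. The ratio of shares was 0.271 (0.245 to 0.3) to secondary spermatocytes and 0.254 (0.23 to 0.28) to spermatids. Of 80 X-linked genes with enough UMIs, 67 (83.8%) were at least 2-fold lower than in secondary spermatocytes and 0 higher, and 58 (72.5%) were lower and 1 higher than in spermatids. The share of lower genes over all chromosomes was 27.6% and 25.4%. Genes were counted by their UMIs over the 3 libraries, and X-linked UMIs were 445 in primary spermatocytes against 3482 and 3911. The 80 genes thus entered mainly through secondary spermatocytes and spermatids, and their counts of lower and higher genes follow in part from this. The X-linked share of UMIs uses no such limit. Among autosomes the ratio to secondary spermatocytes ran from 0.458 on chromosome 16 to 1.23 on chromosome 12. Chromosome 16 carries the protamine cluster, and without Prm1, Prm2, Prm3 and Tnp2 its ratio was 1.01 (0.965 to 1.06).

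The 445 X-linked UMIs were unevenly spread over cells. The deepest barcode gave 195 of them, 43.8% of the total, and without it the X-linked share was 0.276%. Summed by depth, the share was 0.273% (0.211 to 0.349) in barcodes of 200 to under 300 UMIs, 0.28% up to 500, 0.287% up to 1000, 0.27% (0.196 to 0.362) up to 2000, and 0.866% in the 6 barcodes with 2000 or more. The intervals of the first 4 depth ranges overlapped, and the last range, which holds the deepest barcode, lay above them. Of the 17 barcodes with at least 1000 UMIs, 14 had a share under 0.5%, with 0 to 6 X-linked UMIs each. The other 3 had 195, 31 and 21, or 1.58%, 1.46% and 1.45%. These 3 barcodes also had the highest acrosome levels of the 17, at 21380, 23459 and 12146 CPM against 6594 CPM or less in the rest. Among secondary spermatocytes of that depth, 4 of 38 had a share under 0.5%, and among spermatids 3 of 61. Doublets were not called, and whether these 3 barcodes were doublets or later cells in the gate was not tested.

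**Figure D5:**
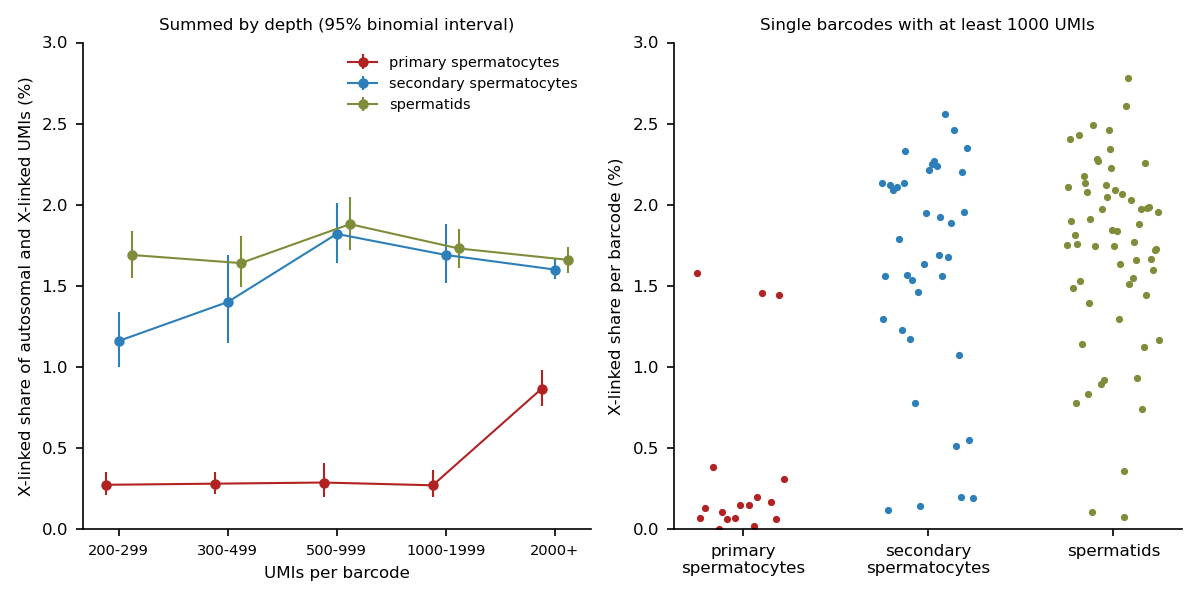
Left, X-linked share of autosomal and X-linked UMIs in percent, summed over barcodes in 5 ranges of depth, with exact 95% binomial intervals. Right, the same share in single barcodes with at least 1000 UMIs, of which 14 of 17 primary spermatocytes lie under 0.5% and the other 3 near 1.5%, against medians of 1.74% in secondary spermatocytes and 1.81% in spermatids.

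The 3 X-linked genes with the most UMIs in primary spermatocytes were higher in both other populations. Tsga8, a spermatid nuclear protein gene, had 34, 225 and 230 UMIs in primary spermatocytes, secondary spermatocytes and spermatids, and 21 of the 34 were in the deepest barcode. Akap4, the anchor of the sperm fibrous sheath, had 24, 196 and 243, and Cypt1 19, 126 and 207. In all, 179 X-linked genes had a UMI in primary spermatocytes, 412 in secondary spermatocytes and 370 in spermatids. These counts were not made at equal depth. The primary spermatocytes held 106941 UMIs against 223002 and 235699, and fewer UMIs find fewer genes on any chromosome. Several X-linked housekeeping genes have autosomal retrocopies that are transcribed when the X is silent. The 12 X-linked parents had 6 UMIs in primary spermatocytes (56.1 CPM, 20.6 to 122.1), against 66 and 35 in the others, and their 12 retrocopies 429 UMIs (4012 CPM), against 3933 and 3543 CPM. The retrocopies were thus near their later level as a sum, but Cetn1 gave 1562 CPM of it, while Pgk2 and Ubl4b were lower than in both other populations. The wild-type testes stood slightly above this sum, at 4174 to 4596 CPM, with its interval at 3641 to 4410.

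Markers of other testis cells differed by list. The telocyte, endothelial and red blood cell lists had 0 UMIs in primary spermatocytes, which at 3 counts of 198 barcodes allows up to 1.52% of barcodes to hold such a UMI (the exact binomial interval reaches 1.85%) and sets no limit on the number of such cells. Leydig cell genes had 9 UMIs (84.2 CPM) over 4 of 7 genes, against 1785 CPM in the secondary spermatocytes and 80.6 CPM in the spermatids, and Insl3, their peptide hormone gene, had 2, 93 and 8. Ptgds, Akr1cl and Pex5l, named as lower than in secondary spermatocytes, had 5, 198 and 7, 0, 67 and 10, and 2, 124 and 55 UMIs. Ptgds is on the Leydig list, and the part of Leydig cell RNA in the other 2 was not tested. Sertoli cell genes had 25 UMIs (233.8 CPM) in 10.6% of barcodes, against 408.1 and 195.2 CPM, and the macrophage, T lymphocyte and peritubular myoid lists had 5, 3 and 1. Immediate early and heat shock genes, which mark stress during dissociation, had 9 UMIs (84.2 CPM), against 264.6 and 101.8 CPM.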

How the data were processed

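The authors made single-cell suspensions, built Drop-seq libraries and sequenced them, aligned reads to mm10 (GRCm38) with STAR 2.5.3a in the Drop-seq pipeline, and deposited unnormalized UMI counts per gene and barcode. Barcodes with at least 200 UMIs were kept and their counts summed and scaled to CPM. No length correction was applied, and no doublet caller was run. Sums have exact Poisson intervals, shares exact Clopper-Pearson intervals, and ratios exact conditional intervals (95%, Python 3.11.15, scipy 1.17.1). With 1 library per population, no test was made. Thinning drew 200 UMIs per barcode. TMM factors came from edgeR 4.0.16. Symbols were matched to GENCODE vM21 (98.8% of primary spermatocyte UMIs placed). The procedure was tested on simulated Poisson counts with large known folds. That setting holds no uneven depth among barcodes, so it does not vouch for the counts of genes past 2-fold. Genes were named by rule, the 15 with the highest lower bound and the 10 with the lowest upper bound of each ratio, the 20 most abundant, and members of 37 lists, of which some are not reported here. Members and lists were chosen with earlier results of these data known, and the promoter patterns, the thinning of levels and the removal of the deepest barcode after the data were seen.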

Additional observations from a re-analysis of the deposited data

Results flagged for a closer look

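Values of the 6 Mlh3-/- libraries, used as a reference, were screened for a library far from the others, over 38 measures. Replicate 2 stood apart in 4, with 992.0 CPM for the spermatogonia list, 894.3 CPM for leptotene and zygotene, 377.3 CPM for immediate early and heat shock genes and 4991 CPM for the splicing genes of mid pachytene. Chance flags about 1 in 20 groups. Only the upper ends of the Mlh3-/- ranges rest on this library, and no value of the primary spermatocytes does.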

How the results depend on the processing

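Alternatives changed which barcodes, genes or scaling were used, 1 at a time. No paired analysis was possible because each sorted population is 1 library and no result comes from a test. Under TMM, 634, 699 and 457 genes were at least 2-fold higher than in secondary spermatocytes, spermatids and both. With at least 10 UMIs per gene (6339 genes) these were 1757, 2260 and 1491, with 1491, 1331 and 1135 lower. More genes were then higher than lower than in secondary spermatocytes and than both, the reverse of the limit of 20 UMIs (4427 genes). With at least 50 (2320 genes), 382, 547 and 341 genes were higher and 752, 718 and 663 lower. The share of genes called higher thus depends on the limit of UMIs and falls as it rises. The X-linked share was 0.57% with at least 500 UMIs per barcode, 0.291% with barcodes weighted equally, 0.273% without the 5 deepest barcodes, 0.276% without the deepest and 0.311% after thinning to 200 UMIs, the last 2 chosen after seeing the data. The elongating list was at 9032 CPM with at least 500 UMIs, 10605 without mitochondrial and ribosomal protein UMIs, 8892 without the deepest barcode and 10581 after thinning, and the 3 markers were at 1638 CPM without the 5 deepest barcodes. The X-linked share stayed below that of every wild-type library in each. Besides depth and the deepest barcode, which show by construction, the cause was not tested. Of 684 log2 ratios of named genes recomputed, 65 moved beyond the counting interval, and of 304 list levels 72 did. No ratio that was past 2-fold changed sign. A gene with few UMIs has a wide interval, and at a median of 308.0 UMIs per barcode absence from a cell says little.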
